A study of Mus musculus with 16 samples.

Results

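The S100 proteins, annexins and galectins examined here are 10 genes of the 17721 counted: the S100 genes *S100a4*, *S100a6*, *S100a10* and *S100a11*, the annexin genes *Anxa1*, *Anxa2*, *Anxa3* and *Anxa5*, and the galectin genes *Lgals1* and *Lgals3*. They were selected on the levels and location differences measured in these same cells, so their values are given as a description and no p-value is attached to any of them. Counts of the 10 genes past a threshold, and calls kept under other settings, are a description too and no support. All 10 passed the low-count filter in each of the 4 cell classes fitted. The measurements are single-cell RNA-seq counts from dissected pieces of the mouse mammary gland, namely 4 nipple (N), 6 duct (D) and 6 terminal end bud (TEB, T) fragments. All fragments, whatever their location, came from *K14-Cre/R26-mTmG* mice on a C57BL/6 background at 5 weeks of age. In these mice Cre recombinase is driven by the *Krt14* promoter, which is active in basal epithelium, and switches a membrane fluorescent reporter. The labels do not say which fragments came from the same mouse, so differences are judged only against the spread between fragments.

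S100 proteins are small calcium-binding proteins that act mostly as dimers. Annexins bind negatively charged membrane lipids when calcium rises and help in membrane repair, trafficking and the resolution of inflammation. The families meet directly, since a dimer of S100A10 binds annexin A2 and S100A11 binds annexin A1. Galectins bind beta-galactoside sugars on glycoproteins and act both at the cell surface and inside the cell. Several of these genes are known in epithelia as markers of differentiated, stressed or barrier-forming cells, whereas galectin-1 is best known from mesenchymal and contractile cells.

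On GRCm38 with GENCODE M21 gene models, the listed S100 genes lay on the plus strand of chromosome 3. *S100a4* was at chr3:90603771-90606045 and *S100a6* at chr3:90612882-90624181, with *S100a5* between them at chr3:90608523-90611780. *S100a11* was at chr3:93520488-93526287 and *S100a10* at chr3:93555080-93564643. *Anxa5* lay on the same chromosome on the minus strand at chr3:36448923-36475894. The other annexins were at chr19:20373428-20390944 on the minus strand (*Anxa1*), chr9:69453620-69491795 (*Anxa2*) and chr5:96793339-96845966 (*Anxa3*), and the galectins at chr15:78926725-78930465 (*Lgals1*) and chr14:47367751-47386160 (*Lgals3*). *S100a4* overlaps the protein-coding model *Gm42674* on the same strand, with 100% identity over 140 bases of its 3' end, so *S100a4* counts are uncertain. *S100a11* has 2 processed pseudogenes at 97.5 and 98.1% identity over 160 bases of its 3' end, and reads from these could have been dropped or assigned to either. *Anxa1* and *Anxa2* each overlap a noncoding gene on the opposite strand, and whether counting used strand is not given in the sources used here. On the same strand, *Anxa3* overlaps the model *Gm42603*, and *Anxa2* and *Anxa5* the microRNA genes *Mir3109* and *Mir7009*. What these overlaps did to the counts was not examined.

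RefSeq promoter sequence (GRCm38.p6, 250 bases before to 50 after the start) was matched by symbol for 7 of the 10 genes. Because several of the genes differed between locations together, 3 motifs were searched on both strands. The AP-1 motif TGANTCA, the site of Fos and Jun dimers, was found in 2 of the 7, *S100a11* and *Anxa2*, and in 8.97% of all 27025 promoters. The GC box GGGCGG was found in 3 of the 7 and in 38.2% of all, and TATAAA in 3 of the 7 and in 15.7% of all. Both genes with an AP-1 match were higher in nipple than in TEB in ER- luminal-like and in basal-like cells. So were *Anxa1* and *Lgals3*, whose promoters held another of these motifs but no AP-1 match. Whether any of the motifs bears on the differences was not tested. The AP-1 matches are shown as a description, with capitals marking the motif. The sequence is written 5' to 3' on the plus strand at chr3:93520351-93520375, chr3:93520449-93520473 and chr9:69453579-69453603.
S100a11, first match: gagacctgtTGAGTCAcagggacta
S100a11, second match: ggcacagccTGAGTCAggctgaggg
Anxa2: caagttggaTGAGTCAcccagcagg
The first bases of the motif lay 136 and 38 bases upstream of the *S100a11* start and 95 bases upstream of the *Anxa2* start. A match of letters is a description and does not show that a factor was bound.

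The deposited table held 1419 cells, of which 1318 were kept, from fragments of 1856141 to 5233122 UMIs, with a median of 30187 UMIs (unique molecular identifiers, each standing for 1 captured transcript end) per kept cell. Clusters were named from marker lists, giving 294 basal-like, 426 ER+ luminal-like, 178 ER- luminal-like and 252 fibroblast-like cells, 78 myeloid-like and 19 pericyte-like cells, and 71 cells left unnamed because mast cell genes led their cluster. Each class of a fragment with 5 cells or more gave 1 summed profile, and levels are CPM after TMM scaling within a class (normalized CPM), or without that scaling where classes are compared (plain CPM). Nipple, duct and TEB fragments numbered 4, 6 and 6 in each of the basal-like and ER+ luminal-like classes, 4, 6 and 4 in ER- luminal-like cells, and 4, 4 and 5 in fibroblast-like cells. Only 4 of the 10 genes were among the 2000 variable genes used for clustering, and clustering again without any S100, annexin or galectin gene left every cell of the 4 classes in its class. At resolution 1, 399 of the 426 ER+ luminal-like cells stayed in their class and all cells of the other 3 classes did. Without regression before clustering, 191 of the 294 basal-like cells stayed in theirs, and 96 of the 97 nipple basal-like cells joined a cluster scored as endothelial-like, so the basal-like class could not be fitted under that setting. The nipple values of basal-like cells therefore rest on the clustering with regression. Depth moved with location, since the median ER- luminal-like cell held 20498 UMIs in nipple, 24788 in duct and 38426 in TEB, and the median basal-like cell 21856, 23146 and 44193. Nearly all TEB basal-like cells (81 of 82) sat in a cluster led by *Gpx2*, *Serpinb11* and *Sostdc1*, and nearly all nipple (96 of 97) and all 115 duct cells in another led by *Cnn1*, *Myh11* and *Actg2*, so location and cluster cannot be told apart in basal-like cells. Over all genes, 4 of 16 ER+ luminal-like, 4 of 14 ER- luminal-like, 5 of 13 fibroblast-like and 0 of 16 basal-like sums correlated best with fragments of another location. In ER+ luminal-like cells these were all 4 nipple fragments, nearest to duct. In ER- luminal-like cells they were T32, T33, T34 and N23, all nearest to duct. In fibroblast-like cells they were all 4 duct fragments, nearest to TEB or nipple, and T42, nearest to nipple. The share of UMIs expected from other wells, estimated from stromal markers in epithelial cells and from keratins in fibroblasts, averaged between 3.07 and 11.1% over the classes and locations.

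Across classes, each gene had its own distribution, as the plot of levels by class shows. *Lgals1*, which encodes galectin-1, was highest in fibroblast-like cells, and its level in basal-like cells depended on location. Its plain CPM averaged 3556 ± 1054 (SD, n = 13) in fibroblast-like and 1901 ± 636 (n = 7) in myeloid-like cells, against 158 ± 75.8 (n = 14) in ER- and 128 ± 57.1 (n = 16) in ER+ luminal-like cells. In basal-like cells it was 2548 to 4325 in nipple and duct fragments and 179 to 611 in TEB fragments, and myeloid-like cells of 5 TEB fragments stood at 1109 to 3135. Both luminal classes lay below fibroblast-like cells of the same fragment in 13 of 13 (ER+) and 12 of 12 (ER-) fragments. Of the *Lgals1* UMIs, 54.1 to 113% in ER+ luminal-like cells and 22.1 to 77.1% in ER- luminal-like cells were expected from other wells. *Lgals3*, which encodes galectin-3, was instead lower in basal-like than in luminal-like cells.

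*Lgals3* averaged 4126 ± 1114 plain CPM (n = 7) in myeloid-like, 2735 ± 1598 in ER- and 2702 ± 394 in ER+ luminal-like, 877 ± 550 in fibroblast-like and 472 ± 412 in basal-like cells. Within fragments it was higher in ER+ luminal-like than in basal-like cells in 16 of 16, whereas the 2 luminal classes split 9 to 5. *Anxa1*, which encodes annexin A1, a protein of the resolution of inflammation, followed the same split, at 2998 ± 1121 in ER- and 2936 ± 684 in ER+ luminal-like cells, 2144 ± 551 in fibroblast-like cells and 564 ± 338 in basal-like cells. The basal-like level of *Anxa1* was below that of each of the other 3 classes in every fragment compared (16, 14 and 13).

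*S100a10*, the partner of annexin A2, had class means between 1573 ± 420 in myeloid-like and 2817 ± 462 in basal-like cells, and it was higher in basal-like than in ER+ luminal-like cells in 16 of 16 fragments by a median of 1.31 times. *S100a11* was higher in ER+ luminal-like than in fibroblast-like cells in 13 of 13 fragments, by a median of 1.74 times. *Anxa5*, which encodes the phosphatidylserine-binding annexin used as a stain for dying cells, was highest in fibroblast-like cells (1365 ± 359), above basal-like cells in 13 of 13 fragments, while basal-like (829.3 ± 172) and ER+ luminal-like cells (791 ± 193) split 10 to 6. *S100a4*, known from migrating and inflammatory cells, averaged 1031 ± 503 in myeloid-like cells, above each other class in every fragment compared.

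**Figure D1:**
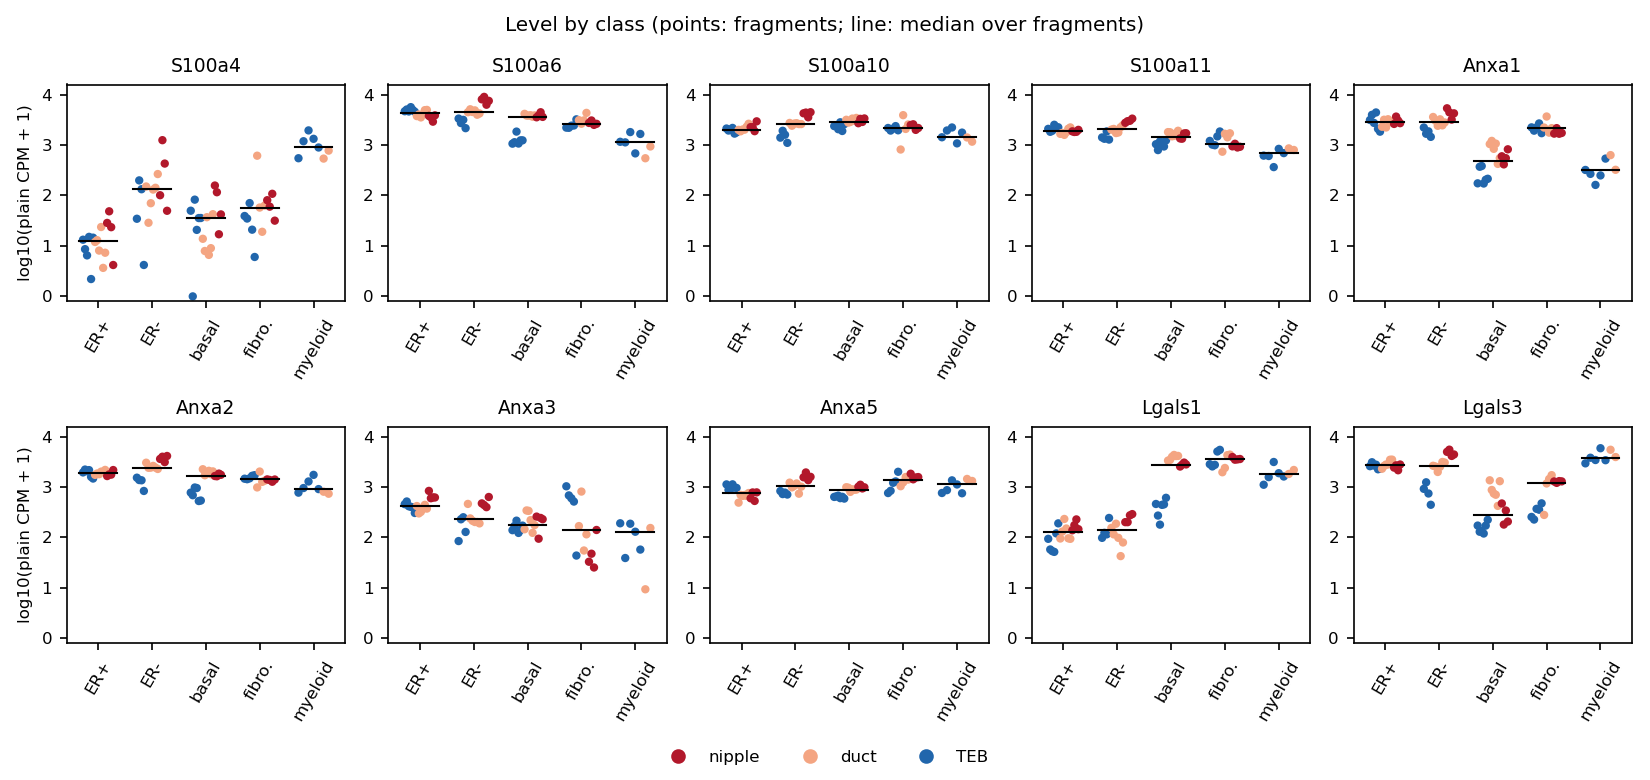
Level of each gene in 5 cell classes, as log10 of plain CPM (UMIs of the gene scaled to the class sum) plus 1 on the vertical axis. Each point is a fragment, coloured by location, and the line is the median over fragments; the points of *Lgals1* in both luminal classes lie below those in fibroblast-like cells, and those of *Lgals3* and *Anxa1* in basal-like cells lie below those in ER+ luminal-like cells of the same fragment.

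In ER- luminal-like cells, the milk-precursor class of the luminal layer, mean levels of 8 of the 10 genes, all but *S100a4* and *Lgals1*, were highest in nipple, intermediate in duct and lowest in TEB, with a called difference between nipple and TEB. *S100a4* had the same order of means without passing. *Lgals3* had the largest log2 difference. It stood at 5552, 6260, 4321 and 4882 normalized CPM in N21 to N24, at 2043 to 3317 in the 6 duct fragments (median 2717) and at 951, 1233, 772 and 432 in T32, T33, T34 and T42. No fragment of one location overlapped with another, and the means were 5254 ± 838, 2779 ± 467 and 847 ± 335 (SD, n = 4, 6 and 4). The log2 difference was 2.63 (SE 0.23) for nipple minus TEB, 0.92 (0.19) for nipple minus duct and 1.71 (0.21) for duct minus TEB. The 3 differences share the same fragments. Other wells were expected to account for 2.0% of its UMIs in nipple, 4.99% in duct and 5.2% in TEB.

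*S100a6*, which encodes calcyclin, stood at 8964, 10241, 6578 and 8294 in the nipple fragments, 4137 to 5419 in duct (median 4636) and 3458, 2709, 3277 and 2103 in TEB. Its fragments again formed 3 groups without overlap, with log2 differences of 1.56 (SE 0.15) for nipple minus TEB and 0.84 (0.14) for nipple minus duct. *Anxa2*, the membrane-binding partner of S100A10, stood at 4020, 4537, 3255 and 4556 in nipple, 2478 to 3142 in duct (median 2536) and 1583, 1367, 1412 and 814 in TEB. *S100a10* stood at 4739, 5002, 3703 and 4939 in nipple, 2559 to 2838 in duct (median 2773) and 1448, 1903, 1659 and 1075 in TEB. The 2 genes of this complex thus had 3 separate levels in the same order, as *Lgals3* and *S100a6* did, so the order is not particular to them. Their nipple minus TEB differences were 1.66 (SE 0.17) for *Anxa2* and 1.59 (0.16) for *S100a10*.

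*Anxa1* stood at 5958, 5054, 3332 and 4692 in nipple, 2470 to 3724 in duct and 2298, 1662, 1938 and 1414 in TEB. Nipple and duct overlapped here, through N23, while TEB lay below both. *S100a11*, the partner of annexin A1, had means of 3325 ± 274, 2160 ± 342 and 1492 ± 308, and *Anxa5* of 1784 ± 322, 1081 ± 176 and 769 ± 78.0. For both, nipple lay above duct and TEB without overlap, but duct and TEB overlapped. *Anxa3*, an annexin of the luminal lineage, averaged 535 ± 119, 262 ± 107 and 175 ± 82.4, with nipple above TEB in every fragment and a log2 difference of 1.62 (SE 0.33).

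Of the 10 genes, 8 passed an adjusted p of 0.05 (edgeR quasi-likelihood test with Benjamini-Hochberg adjustment over all genes) as higher in nipple than in TEB, where 2.98% of the 5706 genes tested did so. The fragments of 8 did not overlap in that direction, where those of 5.96% of genes did not. Nipple exceeded duct for 7 of the 10 (1.09% of genes), and duct exceeded TEB for 5 (1.05%). The genes were listed for differences of this kind, so nothing is read from these counts. The median log2 difference of the 10 genes was 1.58 for nipple minus TEB, against -0.03 over all genes tested. The 2 that did not pass were *Lgals1*, whose UMIs were in large part expected from other wells in nipple and duct, and *S100a4*, which ranged from 53.9 to 1419 among the nipple fragments.

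**Figure D2:**
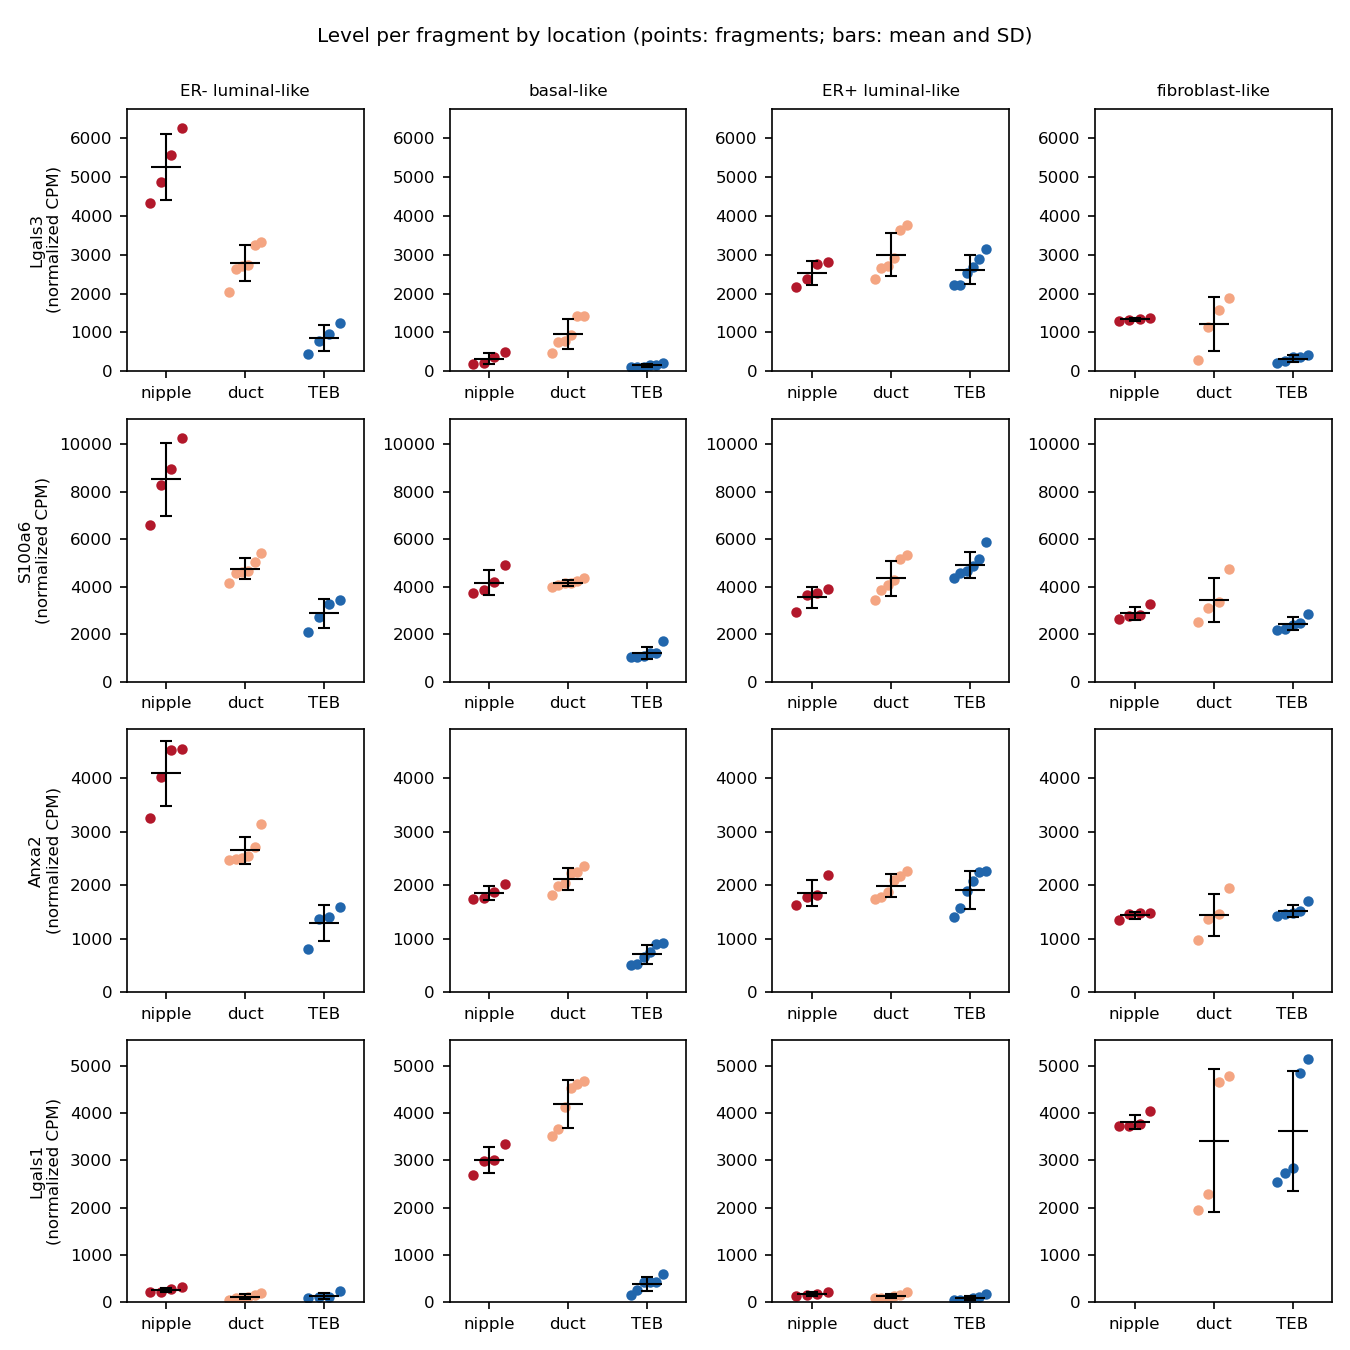
Normalized CPM of *Lgals3*, *S100a6*, *Anxa2* and *Lgals1* (rows) in 4 cell classes (columns) by location. Each point is a fragment and the black bars are the mean and SD; the fragments fall into 3 separate levels in ER- luminal-like cells for the first 3 genes, into TEB below nipple and duct in basal-like cells for *S100a6*, *Anxa2* and *Lgals1*, and overlap between nipple and duct in ER+ luminal-like cells.

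The pattern was also seen cell by cell after each cell was thinned to 5000 UMIs, which sets all cells to 1 depth. The median ER- luminal-like cell then held 26 *Lgals3* UMIs in nipple (10th to 90th percentile over cells 14 to 39.4), 13 in duct (4 to 30) and 3 in TEB (0 to 10.4). For *S100a6* the medians were 45, 24 and 14, and for *Anxa2* 19, 14 and 6. The 10th percentile of nipple cells lay above the 90th percentile of TEB cells for *Lgals3*, *S100a6* and *Anxa2*. It lay below for *S100a10* (12.6 against 13), *S100a11* (8.6 against 13), *Anxa1* (10.6 against 16.2), *Anxa5* (4 against 7.2) and *Anxa3* (0 against 4). Of the nipple cells, 1 was left out as too shallow.

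Other cell types' markers moved with location in these cells too. The summed plain CPM of the 10 basal markers was 1736 to 3332 in nipple, 274 to 784 in duct and 57.8 to 190 in TEB ER- luminal-like cells, and that of the 8 fibroblast markers 906 to 1527, 128 to 347 and 119 to 289. The 12 epidermal keratinocyte markers summed to 1402 to 1682, 1300 to 1872 and 508 to 1183. Of the 12, 4 were at 0 in nipple (*Krt1*, *Lor* and *Ivl* among them), 5 in duct and 4 in TEB, with *Krt1* and *Ivl* at 0 in each location. Apart from the share expected from other wells, their part in the differences was not tested.

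The nipple minus TEB calls in ER- luminal-like cells were kept for all 8 genes when any 1 fragment was left out, and for 7 of the 8 with at least 10 cells per fragment, which left 1 TEB fragment and lost *Anxa3* (log2 difference 1.19). The same minimum of 10 cells ended all 5 duct minus TEB calls, with log2 differences of 0.89 for *Anxa1*, 0.98 for *Anxa2*, 1.12 for *Lgals3*, 0.53 for *S100a10* and 0.82 for *S100a6*, and that of *Anxa1* was also lost without T42 (0.65). Because the genes were listed for such differences, a kept call is a description and no support. Of the 7 nipple minus duct calls, those of *S100a6* and *S100a10* were kept under every alternative run. That of *Anxa1* was lost without D51, D61, N21, N22 or N24 (lowest value 0.50) or with finer clusters (resolution 1, 0.55), that of *Anxa2* without D32, D61, N21, N22 or N24 (lowest 0.54), that of *S100a11* without D52, N22 or N24, that of *Anxa5* without N22 or N24, and that of *Lgals3* without N22 (0.81) or at resolution 1 (0.84).

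In basal-like cells, the outer contractile layer, the split was instead between TEB and both other locations. *Lgals1* stood at 2689, 2996, 3346 and 3000 normalized CPM in the nipple fragments, 3509 to 4684 in duct with a median of 4322, and 164 to 600 in TEB with a median of 433. Every TEB fragment lay below every other one, and every nipple fragment below every duct fragment. The log2 difference was 2.94 (SE 0.24) for nipple minus TEB, 3.42 (0.23) for duct minus TEB and -0.48 (0.24) for nipple minus duct, the last not past the adjusted threshold. *S100a6* stood at 3743, 4182, 4896 and 3859 in nipple, 3964 to 4359 in duct and 1018 to 1693 in TEB, so that nipple and duct overlapped (difference 0.00, SE 0.12) and both lay above TEB, by 1.79 (0.12) and 1.78 (0.11).

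*Anxa2* averaged 1850 ± 126 in nipple, 2114 ± 199.6 in duct and 709 ± 177 in TEB basal-like cells (n = 4, 6 and 6), and *S100a11* 1640 ± 237, 1834 ± 210.5 and 992 ± 156. *S100a10* differed least of the genes that passed, at 3292 ± 356, 3341 ± 326 and 2266 ± 353, a log2 difference of 0.54 (SE 0.11) for nipple minus TEB against 1.39 (0.14) for its partner *Anxa2*. *Anxa5* averaged 1087 ± 76.2, 973 ± 77.0 and 604 ± 18.7. For these 4 genes nipple and duct overlapped, and both lay above TEB without overlap.

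*Lgals3* went another way in basal-like cells, with its highest level in duct. It stood at 498, 194, 374 and 220 in nipple, 480 to 1427 in duct with a median of 850.4, and 115 to 219 in TEB with a median of 143. Nipple was lower than duct by a log2 of -1.59 (SE 0.29), and the nipple fragments overlapped with TEB. Basal-like *Lgals3* was low, and other wells were expected to give 121% of its UMIs in TEB, 47.8% in nipple and 30.2% in duct. *Anxa1* stood at 446 to 879 in nipple, 480 to 1285 in duct and 166 to 352 in TEB, where 95.4% of its UMIs were expected from other wells. For *Lgals1* and *S100a6* the TEB shares were 24 and 35.9%.

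Higher in nipple than in TEB were 8 of the 10 genes by the same test, where 8.90% of 7316 genes were, and 7 of 10 did not overlap, where 7.57% of genes did not. Higher in duct than in TEB were 8 of 10 (6.48% of genes). In nipple against duct, *Lgals3* alone passed, as lower in nipple (4.06% of genes). The median log2 difference of the 10 genes was 1.19 for nipple minus TEB and -0.14 for nipple minus duct, against -0.05 and -0.04 over all genes. The 8 nipple minus TEB calls were kept when any 1 fragment was left out, a description only, since the genes were listed for such differences. Thinning each cell to 5000 UMIs ended the *Lgals3* call for nipple minus TEB, with a value of 0.54, and so did the minimum of 10 cells (0.94).

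The basal markers themselves changed over the same split, with a summed plain CPM of 18041 to 20426 in nipple, 22063 to 28043 in duct and 4542 to 8670 in TEB. The epidermal keratinocyte list summed to 2599 to 3064, 2714 to 3927 and 872 to 1876. Of the 12, 4 were at 0 in nipple (again with *Krt1*, *Lor* and *Ivl*), 2 in duct and 1 in TEB. Whether these markers and the 8 genes have a common source was not tested.

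**Figure D3:**
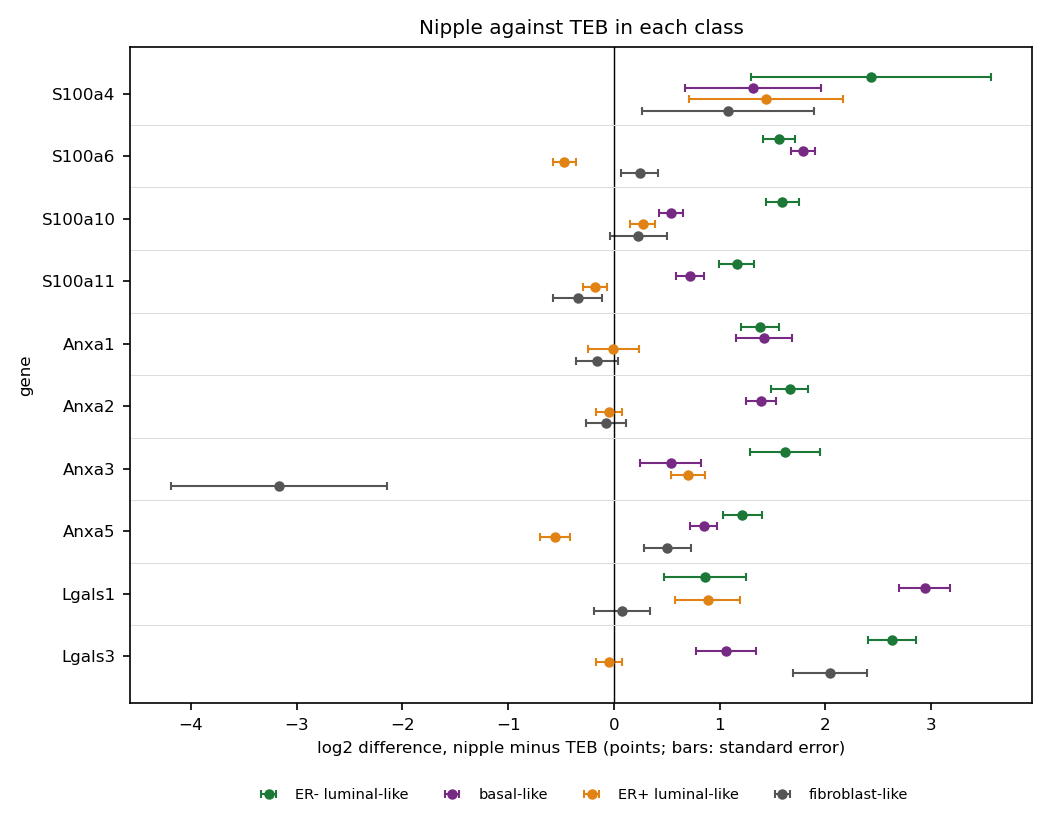
Log2 difference between nipple and TEB for each of the 10 genes (rows) in 4 cell classes (colours), with the standard error as bars. *Lgals3* lies at 2.63 for ER- luminal-like cells, at 2.04 for fibroblast-like cells and at -0.05 in ER+ luminal-like cells, and *Lgals1* at 2.94 in basal-like cells.

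In ER+ luminal-like cells, the hormone-receptor-bearing class, most of the 10 genes differed little between locations. *Lgals3* stood at 2383, 2761, 2167 and 2822 normalized CPM in nipple, 2367 to 3756 in duct and 2213 to 3149 in TEB, and *Anxa2* at 1620, 1824, 1774 and 2192, 1739 to 2271 and 1408 to 2260. Both genes overlapped among all 3 locations, with nipple minus TEB differences of -0.05 (SE 0.12) and -0.04 (0.12).

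A few genes did differ. *S100a6* was lower in nipple, at 3712, 3636, 2928 and 3915, than in TEB, at 4372 to 5891 (median 4770), a log2 difference of -0.47 (SE 0.11). *Anxa5* was lower in both nipple (533 to 800) and duct (502 to 789) than in TEB (890 to 1181, median 941), by -0.56 (0.14) and -0.55 (0.12). *Anxa3* was higher in nipple, at 822, 615, 627 and 627, than in duct (303 to 478) and TEB (292 to 524). In each case the fragments did not overlap. The directions of *S100a6* and *Anxa5* were opposite to those in both other epithelial classes.

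Markers of other cell types moved with location in ER+ luminal-like cells too. The summed plain CPM of the 8 fibroblast markers was 898 to 2228 in nipple, 209 to 598 in duct and 170 to 371 in TEB, and that of the 10 basal markers 142 to 949, 225 to 1158 and 35.4 to 245 (medians 529, 452 and 50.1). The 12 epidermal keratinocyte markers overlapped among the 3 locations. The part of these markers in the 3 differences was not tested.

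By the same test 1 of the 10 genes was higher in nipple than in TEB (2.59% of 8770 genes) and 2 were lower (2.94%), while 1 was higher in nipple than in duct (0.878%) and 1 higher in TEB than in duct (0.582%). The median log2 difference was -0.02, that of all genes also -0.02. The duct minus TEB call of *Anxa5* was lost without D31 (-0.46) or T31 (-0.50) and its nipple minus TEB call without N23 (-0.47), and that of *Anxa3* was lost when cells were thinned (0.52). In a fit of 2 classes together with a class by location term, chosen after the data were seen, the nipple minus TEB difference exceeded that of ER+ luminal-like cells by 2.65 (SE 0.28) for *Lgals3*, 2.01 (0.18) for *S100a6*, 1.75 (0.23) for *Anxa5* and 1.68 (0.21) for *Anxa2* in ER- luminal-like cells. The basal-like difference exceeded the ER+ one by 2.33 (SE 0.16) for *S100a6*, 2.14 (0.46) for *Lgals1* and 1.48 (0.18) for *Anxa5*. The genes were listed with these differences in view, so the values are a description and nothing is read from them.

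In fibroblast-like cells, *Lgals3* and *Anxa3* varied in opposite directions. *Lgals3* stood at 1325, 1292, 1383 and 1355 normalized CPM in nipple, at 278, 1127, 1569 and 1875 in D32, D52, D61 and D62, and at 255, 225, 365, 360 and 420 in T31 to T34 and T42. Nipple lay above TEB without overlap, by a log2 of 2.04 (SE 0.35), while D32 fell among the TEB fragments. *Anxa3* stood at 32.9, 49.8, 25.8 and 147 in nipple, 167, 778, 58.9 and 125 in duct and 1033, 680, 592, 523 and 38.0 in TEB. Its difference of -3.17 (SE 1.02) did not pass the adjusted threshold, and T42 lay within the nipple range.

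These values followed the fibroblast clusters. The cluster led by *Mmp3* and *Penk* held 115 of 116 nipple, 29 of 38 duct and 16 of 98 TEB fibroblast-like cells, and the cluster led by *Pi16* and *Dpp4*, markers of adventitial fibroblasts, held 64 TEB, 3 duct and 1 nipple cell. *Lgals3* averaged 1209 ± 551 plain CPM (n = 8 fragments) in the first and 226 ± 20.1 (n = 4) in the second, *Anxa3* 94.1 ± 79.1 and 943 ± 85.6, and *Anxa5* 1480 ± 238 and 759 ± 15.7. Location and fibroblast cluster cannot be told apart in these fragments. *Lgals1*, *Anxa1*, *Anxa2*, *S100a10* and *S100a11* showed no location difference past the threshold, and *Lgals1* ranged from 1956 to 4786 in duct and from 2555 to 5142 in TEB.

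In fibroblast-like cells 1 of the 10 genes, *Lgals3*, was higher in nipple than in TEB, where 1.11% of 8489 genes were, and it was also the 1 gene higher in duct than in TEB (0.212% of genes). The nipple minus TEB call was kept without any 1 fragment. The duct minus TEB call was lost without D52, D61, D62, T31, T32, T34 or N21, with values of 1.62 to 1.95.

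The other genes of the 3 families were read from a list of 26, all in the table, of which 12 were tested in each epithelial class and 10 in fibroblast-like cells. Across the 3 locations, 8 of 12 passed in basal-like, 6 of 12 in ER+ luminal-like, 6 of 12 in ER- luminal-like cells and, by edgeR, 0 of 10 among fibroblast-like ones (1 at an unadjusted p under 0.05, and 1 by DESeq2), where 20.6, 5.56, 4.10 and 1.70% of all genes passed. Of the 6 in ER- luminal-like cells, *S100g* had 743 UMIs in nipple, 2 in duct and 0 in TEB. It passed the low-count filter through nipple alone, so its call is a description and no support. The relatives did not all move with the 10 genes. In ER- luminal-like cells 5 were higher and 1 lower in nipple than in TEB, in basal-like cells 4 and 3, and in ER+ luminal-like cells 2 and 5. Of all genes tested, 2.98, 8.90 and 2.59% were called higher in nipple in these 3 classes, and 2.94% lower in ER+ luminal-like cells. In either direction, 261 of 5706, 1369 of 7316 and 485 of 8770 genes were called.

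*S100a14*, an epithelial S100 gene, was higher in nipple than in TEB in ER- luminal-like cells. In the other epithelial classes its mean was lower in nipple than in TEB. In ER- luminal-like cells it stood at 652, 641, 368 and 231 normalized CPM in nipple, 60.1 to 178 in duct and 54.9 to 94.9 in TEB, a log2 difference of 2.74 (SE 0.38, edgeR quasi-likelihood adjusted p = 1.53e-05) for nipple minus TEB. In basal-like cells its nipple and TEB fragments overlapped. There it averaged 36.8 ± 22.4 in nipple, 219 ± 54.0 in duct and 150 ± 117 in TEB (nipple minus duct -2.54, SE 0.52, edgeR adjusted p = 0.00283). In ER+ luminal-like cells it averaged 137 ± 54.9, 111 ± 48.9 and 323 ± 67.7 (nipple minus TEB -1.23, SE 0.31, edgeR adjusted p = 0.0154). The class by location term was 3.94 (SE 0.49, edgeR adjusted p = 1.35e-07) between ER- and ER+ luminal-like cells and 4.68 (0.66, edgeR adjusted p = 5.20e-06) between ER- luminal-like and basal-like cells, terms that passed for 3.25 and 3.46% of all genes. This fit, here and for the relatives below, was chosen after the data were seen and treated sums of the same fragment as independent.

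*S100a1*, *S100a13*, *S100a14* and *S100a16* lie next to each other at chr3:90511034-90543151, and for all 4 the nipple minus TEB difference was more positive in ER- than in ER+ luminal-like cells, with edgeR adjusted p from 1.35e-07 to 0.00134. For *S100a3*, the next listed family gene at chr3:90560578-90602702, the same term was 1.23 (SE 1.07, edgeR adjusted p = 0.632) and did not pass. *S100a13*, which helps export signal proteins, averaged 439 ± 164 in nipple, 295 ± 52 in duct and 178 ± 42.6 in TEB ER- luminal-like cells, but 121 ± 89.0, 243 ± 33.8 and 289 ± 36.7 in ER+ luminal-like cells. *S100a16* averaged 2428 ± 598 in nipple, 1665 ± 361 in duct and 964 ± 289 in TEB in ER- luminal-like cells. In basal-like cells *S100a1* was higher in nipple (366 ± 121) and duct (479 ± 108) than in TEB (139 ± 57.6). *S100g*, the vitamin D-dependent calbindin and one of the leading genes of the ER- luminal-like cluster, was found in ER- luminal-like cells of the nipple, with 351, 19, 338 and 35 UMIs in N21 to N24, 2 UMIs in all duct and 0 in all TEB fragments. Its rate pooled over the nipple fragments was at least 366-fold higher than in TEB, set against a floor of 3 UMIs over the TEB sums. It was 734 times that in duct (exact 95% interval 202 to 6069, counting error only). These pooled ratios do not cover the spread between the nipple fragments.

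Among annexins, *Anxa8*, an annexin of stratified and ductal epithelium, was higher in nipple than in TEB in all 3 epithelial classes. In ER- luminal-like cells it stood at 134, 266, 397 and 196 in nipple and 9.50 to 84.9 in duct, with 3 UMIs in all TEB fragments, a ratio of nipple to TEB rates of 154 (exact 95% interval 52.2 to 751). In basal-like cells it averaged 47.1 ± 8.48, 33.4 ± 28.2 and 2.86 ± 4.98, and in ER+ luminal-like cells 38.7 ± 16.7, 9.62 ± 6.55 and 2.10 ± 2.61. *Anxa6*, a large annexin of endosomes, was lower in nipple than in TEB in basal-like (-0.55, SE 0.17, edgeR adjusted p = 0.0174), ER- luminal-like (-1.34, SE 0.29, edgeR adjusted p = 0.0044) and ER+ luminal-like cells (-1.25, SE 0.20, edgeR adjusted p = 9.48e-05).

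Among galectins, *Lgals9* averaged 230 ± 69.9 in nipple, 87.3 ± 31.2 in duct and 14.5 ± 11.6 in TEB basal-like cells, where its TEB UMIs lay at background (198% expected from other wells), and 64.9 ± 43.6, 126 ± 58.8 and 271 ± 41.8 in ER+ luminal-like cells. The class by location term between the 2 was 6.15 (SE 0.62, edgeR adjusted p = 2.27e-09), where 8.17% of all genes passed. *Lgals7*, the galectin of stratified epithelium, was lower in nipple basal-like cells, at 1073 ± 156, than in duct (1457 ± 126) and TEB (1515 ± 230).

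**Figure D4:**
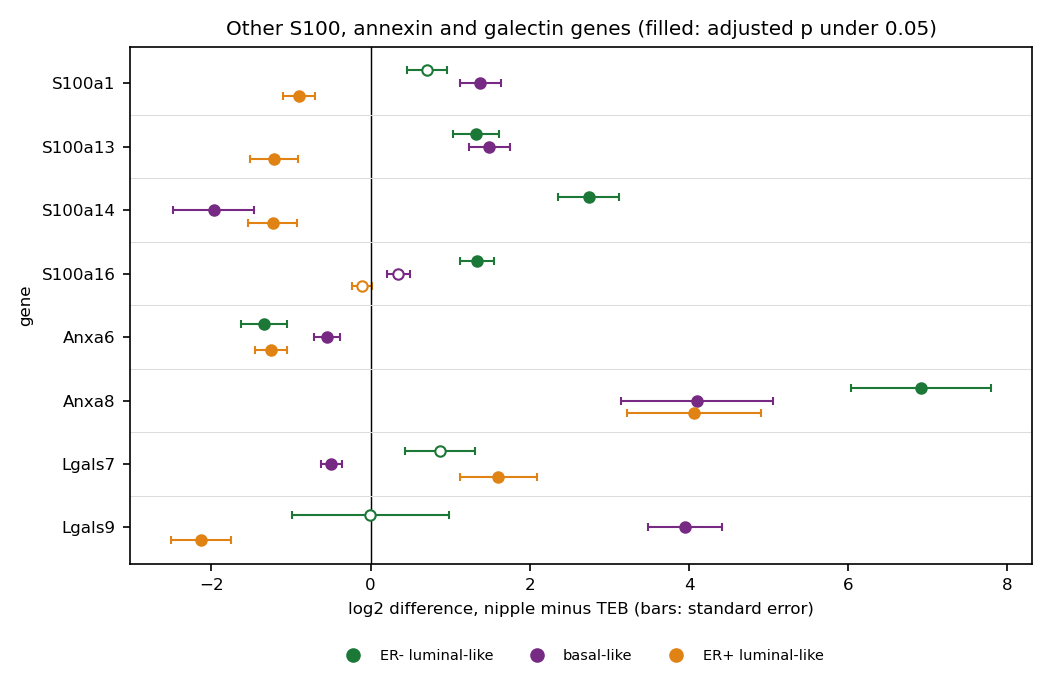
Log2 difference between nipple and TEB, with its standard error, for 8 other S100, annexin and galectin genes (rows) in 3 epithelial classes (colours); filled points passed an adjusted p of 0.05 for nipple minus TEB. *S100a14* lies at 2.74 in ER- luminal-like cells and at -1.23 in ER+ luminal-like cells, *Anxa6* lies below 0 and *Anxa8* above 0 in all 3 classes.

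Known binding partners of the 3 families were read from a list of 20 genes, of which 13, 14, 10 and 13 were tested. Across locations 4 passed in basal-like, 0 in ER+ luminal-like (3 unadjusted), 2 in ER- luminal-like cells and 0 among fibroblast-like ones (6 unadjusted) by edgeR, where 20.6, 5.56, 4.10 and 1.70% of all genes passed. For nipple minus TEB alone, 4, 1, 3 and 0 were called higher in nipple in the same order of classes, where 8.90, 2.59, 2.98 and 1.11% of all genes were. In ER- luminal-like cells 1 was called lower, and 261 of 5706 genes were called in either direction. *Plaur*, the urokinase receptor of the plasminogen system in which annexin A2 and S100A10 take part, averaged 994 ± 249 in nipple, 867 ± 230 in duct and 244 ± 67.0 in TEB basal-like cells (nipple minus TEB 2.04, SE 0.20, edgeR adjusted p = 2.35e-09), and 663 ± 197, 694 ± 190 and 187 ± 114 in ER- luminal-like cells (1.79, SE 0.32, edgeR adjusted p = 0.000533). *Ahnak*, a giant scaffold bound by the same complex, averaged 1175 ± 114, 1181 ± 181 and 412 ± 163 in basal-like cells and 1569 ± 283, 1259 ± 163 and 641 ± 293 in ER- luminal-like cells. *Cd44*, a hyaluronan receptor and galectin ligand, averaged 328 ± 36.0, 412 ± 97.2 and 201 ± 63.0 in basal-like cells. In basal-like cells all 3 were lower in TEB than in nipple and in duct past the threshold.

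Over the 59 class and fragment sums, which share fragments and depth within a location, *S100a6* and *Anxa2* were the pair most alike (Pearson r of log2 CPM 0.89), followed by *S100a6* with *S100a11* (0.81) and *Lgals3* with *Anxa1* (0.80). *Anxa2* and its partner *S100a10* were less alike, at 0.53. *Lgals1* ran apart, with r of -0.51 to *Lgals3*. Among 3355 other genes with a mean of at least 50 CPM, the nearest to *Lgals1* were *Aebp1* (0.94) and *Sparc* (0.92), both of extracellular matrix, and the nearest to *Lgals3* were *Cd82* and *Rnh1* (both 0.81). *S100a11* was nearest to *Tagln2* (0.85) and *Anxa1* to *Capg* (0.83), which encode actin-binding proteins. *Sgms2* was the nearest to both *S100a6* (0.72) and *Anxa2* (0.70). These values describe likeness across classes and locations and carry no test.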

How the data were processed

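Per the labels and the methods, the authors took UMIs with UMI-tools, ran Trim Galore and FastQC, mapped reads to mm10 by STAR with unique hits retained, and counted with featureCounts. The deposited values are raw UMI counts per gene and cell. Versions of those tools are not given in the sources used here. A deposited list of well barcodes was not used. The 10 genes, the lists of relatives, partners and markers, and the tests were chosen with earlier results of these data known.

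Cells with at most 5% spike-in UMIs, 5000 to 120000 UMIs and 200 to 6000 genes were kept. Seurat 5.3.0 (R 4.3.3) clustered them at resolution 0.5 on 14 principal components of 2000 variable genes, regressing out spike-in share, cell cycle scores and gene number. Barcodes name wells, and 33 of 95 occurred in all 16 fragments. No doublet caller was run. Sums of at least 5 cells per class and fragment (89639 to 2061534 UMIs in the 4 classes) entered a robust quasi-likelihood model in edgeR 4.0.16 after TMM scaling and filterByExpr, with all locations in 1 model, no block and a Benjamini-Hochberg threshold of 0.05. An SE is the log2 difference over the square root of its F. The fit was checked on simulated data. No 2 fragments of a group agreed within sampling noise (chi-square per degree of freedom 3.96 or more). Locations came from the labels, and p-values measure only the spread between fragments, which may be technical.

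All 10 genes were to be named, of called relatives up to 5 per class and of called partners up to 3 by smallest p across locations, and the 2 nearest other genes of each. *Lgals7*, and *Anxa6*, *Anxa8* and *S100a13* in classes where they ranked lower, were added after their values were seen. The class by location fit treated sums of the same fragment as independent and was also added then. UMIs expected from other wells are the median marker share of a class's cells (fibroblast and myeloid markers, or keratins for fibroblasts) over the marker share of the fragment's other cells, multiplied by those cells' rate for the gene and the class's UMIs. Positions and 3' ends came from GENCODE M21, compared with BLAST+ 2.17.0+, and promoters from RefSeq. Alternatives were DESeq2 1.42.0, RLE factors, no filter, thinning to 5000 UMIs, at least 10 cells, resolution 1, no regression, clustering without the families, a block on label numbers and leaving out each fragment. Intervals cover counting error only.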

Additional observations from a re-analysis of the deposited data

Results flagged for a closer look

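Within 120 groups of 4 to 6 fragments of 1 class and location, 14 had a highest or lowest fragment set apart from the others; chance alone flags about 1 in 20 groups. In fibroblast-like cells these were *Anxa1* in N22 (2308 normalized CPM), *Anxa2* in N23 (1344), *Lgals1* in N21 (4039), *S100a11* in N22 (1131), *Anxa3* in D52 (778) and *S100a4* in D32 (611). In ER- luminal-like cells they were *Anxa2* (3142) and *Anxa3* (478) in D31 and *Lgals1* in T42 (236). In ER+ luminal-like cells they were *Anxa3* in N21 (822) and *S100a11* in N24 (2018). In basal-like cells they were *Anxa3* in N22 (101), *Anxa5* in D51 (829.1) and *S100a6* in T33 (1693). Without N21, *Anxa3* of the other nipple fragments in ER+ luminal-like cells (615 to 627) still lay above all duct and TEB fragments. Without D32, the fibroblast-like *S100a4* difference between duct and TEB moved from 2.33 to 0.45.

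Several genes had log2 differences of opposite sign in different classes, with no overlap of fragments in either. For the nipple minus TEB values of *S100a6* and *Anxa5* the class by location terms stand in the report as a description, since the listed genes were chosen with such differences in view; the duct minus TEB and nipple minus duct values were not tested between classes. *S100a6* had nipple minus TEB log2 differences of 1.79 for basal-like, 1.56 for ER- luminal-like and -0.47 for ER+ luminal-like cells. *Anxa5* had 0.85, 1.21 and -0.56, and for duct minus TEB 0.69 in basal-like and -0.55 in ER+ luminal-like cells. *Lgals1* had nipple minus duct differences of -0.48 in basal-like and 1.18 in ER- luminal-like cells, neither past the adjusted threshold, and in the latter 64.8 to 77.1% of its UMIs in these locations were expected from other wells.

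Among the relatives, nipple minus TEB was 3.95 in basal-like and -2.13 in ER+ luminal-like cells for *Lgals9* (duct minus TEB 2.55 and -1.11), and 1.38 and -0.90 for *S100a1*; the class by location term for nipple minus TEB passed for both, with edgeR adjusted p of 2.27e-09 and 3.39e-06. *S100a14* had 2.74 (ER-) and -1.23 (ER+) within the luminal classes, with its term given above, and nipple minus duct of -2.54 (basal-like) and 1.94 (ER- luminal-like), which was not tested. *S100a13* had nipple minus TEB of 1.49 for basal-like, 1.32 for ER- luminal-like and -0.71 for fibroblast-like cells, and the term with fibroblast-like cells was not tested.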

How the results depend on the processing

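No log2 difference of the 10 genes that had passed the threshold changed sign under any alternative run. Of 921 log2 differences recomputed without leaving out a fragment, 904 moved by less than the spread between fragments and 17 by more, and of 1770 with a fragment left out 1767 moved by less. Thinning each cell to 5000 UMIs lowered the number of genes called for nipple minus TEB from 1369 to 619 in basal-like, from 485 to 208 in ER+ luminal-like and from 261 to 150 in ER- luminal-like cells, and left 2 relatives called among ER- luminal-like cells (6 at first); 2 of the 10 genes were then called in fibroblasts. At least 10 cells per fragment gave 36 genes and 3 relatives in ER- luminal-like cells, where 1 TEB fragment remained and is assumed to vary like the others, and 489 genes, 3 of the 10 and 2 relatives in fibroblast-like cells (first values 131, 1 and 0). DESeq2 gave 406 genes in ER- luminal-like cells and 295 genes, 2 of the 10 and 1 relative in fibroblast-like cells; no filter gave 221 genes and 1 relative there. Clustering without regression gave no basal-like value, since 1 nipple basal-like cell was left in the class. Beyond the smaller number of fragments under the cell minimum, the cause was not tested.

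With each fragment left out, genes called for nipple minus TEB ranged from 1176 to 1407 in basal-like, 418 to 520 in ER+ luminal-like, 162 (without T42) to 292 in ER- luminal-like and 72 (without N21) to 236 (without T42) in fibroblast-like cells, where N22 (82), N23 (78), T32 (84) and D32 (201) also moved it by over 1.5 times. Of the 10 genes 8 stayed called for basal-like and for ER- luminal-like cells, with 2 to 4 for ER+ luminal-like cells and 1 among fibroblast-like cells. Relatives called ranged from 7 to 9, 5 to 6, 5 to 7 and 0 to 2 in basal-like, ER+ luminal-like, ER- luminal-like and fibroblast-like cells, the last with 2 without T42 and 1 without D52.

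Duct and TEB fragments share the label numbers 31 and 32. Deviations of same-numbered fragments correlated at -0.02 in basal-like and -0.002 in ER+ luminal-like cells. With 2 pairs this cannot tell whether the numbers pair these fragments, and the main fit used no block. A replicate block on these 4 fragments called 308 genes for duct minus TEB in basal-like and 183 in ER+ luminal-like cells, the same 4 fragments without the block (added after the data were seen) 133 and 150, and all fragments 760 and 145. No paired analysis was possible in fibroblast-like or ER- luminal-like cells because fewer than 2 such pairs had 5 cells in both fragments. The nipple labels, N21 to N24, share no first digit with any duct or TEB label. A grouping by that digit, if it has a meaning, cannot be told apart from location for nipple. The depth limits *S100a4* and *Anxa3*, whose sums often held few UMIs, and other-well RNA limits luminal *Lgals1*.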

Other observations

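Myeloid-like cells, too few for a comparison with nipple, had *Lgals3* at 5589 and 4162 normalized CPM in 2 duct fragments and 3087 to 5590 in 5 TEB fragments, and *S100a4* at 549 and 819 in duct and 572 to 1825 in TEB. The 1 fragment with at least 5 pericyte-like cells had *Lgals1* at 3791, *S100a6* at 3199 and *S100a4* at 718 plain CPM, against *Anxa1* at 340 and *Lgals3* at 416. In the third fibroblast cluster, led by *F2r* and *Nrgn*, *Lgals1* averaged 6412 ± 3117 plain CPM over 2 fragments and *Anxa3* 30.7 ± 14.2.

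The 2 ER+ luminal-like clusters are described without a test. The cluster led by *Ido1* and *Sprr1a* held 15 of 43 nipple and 114 of 172 TEB cells, and the cluster led by *Krt4* and *Wfdc12* the rest. *S100a6* averaged 4810 ± 849 plain CPM in the first and 3862 ± 559 in the second (14 fragments each), *Anxa5* 804 ± 293 and 721 ± 140, and *Anxa3* 408 ± 106 and 471 ± 205.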
